A study of Mus musculus with 12 samples.

Results

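RNA levels of 10 genes of the N6-methyladenosine (m6A) pathway were followed in mouse aortic endothelial cells by the diet, CD or WD, of the mother and of the offspring. They are the readers Ythdf1, Ythdf2, Ythdf3, Ythdc1 and Ythdc2, the writers Mettl3, Mettl14 and Wtap, and the erasers Alkbh5 and Fto. The genes were found by symbol, and all 10 were present among the 10655 genes with deposited values. The set was chosen by measured values: Ythdf3 had one of the lowest p-values among genes higher with WD mothers in CD offspring. Every value of that comparison is therefore a description here, with no test. RNA had been sequenced with SMART-seq, which reads transcripts along their length, in 12 libraries in 4 groups of 3, whose titles join a mother's diet and an offspring's diet in that order, after the series text: WD_WD (WD mothers, WD offspring), CD_WD (CD mothers, WD offspring), WD_CD (WD mothers, CD offspring) and CD_CD (CD mothers, CD offspring). The offspring on WD had received it again for 4 weeks, per the series text. The labels do not spell out CD and WD. The study was about how a high-fat diet of the mother bears on atherosclerosis in her offspring. The labels used here give no strain, genotype, sex, age, number of animals pooled or sorting step. They do not say whether replicates came from separate animals, so p-values measure no more than how these samples scatter, and part of that scatter may be technical.

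m6A is the most abundant internal mark of messenger RNA. It is placed in the nucleus by a complex in which METTL3 is the catalytic subunit, METTL14 holds the RNA and WTAP anchors both. FTO and ALKBH5, dioxygenases of the AlkB family, can take the mark off again. Proteins with a YTH domain bind it: YTHDC1 in the nucleus, where it acts in splicing and export, and YTHDF1, YTHDF2 and YTHDF3 in the cytoplasm, where YTHDF2 recruits the CCR4-NOT deadenylase and promotes decay of the bound RNA. YTHDC2 is an RNA helicase known mainly from meiosis in the germ line.

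The libraries held 4074413 to 19670570 reads in the deposited genes. These were 4074413 to 18013966 in WD offspring and 10667657 to 19670570 in CD offspring. In WD offspring 1 read stood for 0.861 to 3.96 normalised counts, and in CD offspring for 0.347 to 0.669. Equal normalised counts thus rest on fewer reads in WD offspring. The level of endothelial markers also differed with the offspring's diet. The summed level of 15 endothelial markers lay between 2297 and 36631 normalised counts in WD offspring and between 64435 and 104697 in CD offspring. Summed levels of 14 macrophage markers were 41733 to 1034500 in WD offspring and 11378 to 116771 in CD offspring. CD_WD replicate 1 stood apart, with an endothelial mean log2 level of 6.40, against 8.20 to 10.1 in the other WD offspring libraries, and a lymphocyte mean of 12.98, against 8.53 to 11.1. Fewer cells of a type and less RNA per cell cannot be told apart in such bulk libraries, and a batch between the offspring diets, of which the labels name none, cannot be told apart from the diet.

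Per kilobase of merged exons (GENCODE M21, GRCm38), the readers Ythdf2 and Ythdf1 led with means over the 12 libraries of 163 and 125 normalised counts per kilobase. They were followed by Alkbh5 (106), Wtap (102), Ythdc1 (70.7) and Ythdf3 (62.5), and then by Mettl3 (27.3), Fto (26.9), Mettl14 (12.4) and Ythdc2 (7.20). The order differed between groups. Alkbh5 had the highest mean in CD_CD (149 per kilobase, against 137 for Ythdf2 and 127 for Ythdf1) and was next to Ythdf2 in WD_CD (182, against 235 for Ythdf2), while it had 36.5 in WD_WD and 58.4 in CD_WD. Ythdc1 was above Ythdf1 in CD_WD (149 against 129). The ranges of neighbours in the order over all libraries overlapped: Ythdf1 alone lay between 53.5 and 271 per kilobase over the libraries. The writer pair Mettl3 and Mettl14 and the reader Ythdc2 were thinly covered in some libraries. Mettl3 had 1 read in WD_WD replicate 1, Mettl14 had 1 read in WD_WD replicate 3 and Ythdc2 had 3 reads in WD_WD replicate 2, whereas in the other 2 WD_WD libraries Mettl3 had 124 and 51 reads. Within groups, the SD of log2 levels was 1.74 for Mettl3, 1.59 for Mettl14 and 1.55 for Ythdc2, against a median of 0.806 over all genes. It was 0.285 for Ythdf3, 0.36 for Alkbh5 and 0.388 for Ythdf2. The spread of Ythdf3 entered the p-value that chose it and is given as a description.

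**Figure D1:**
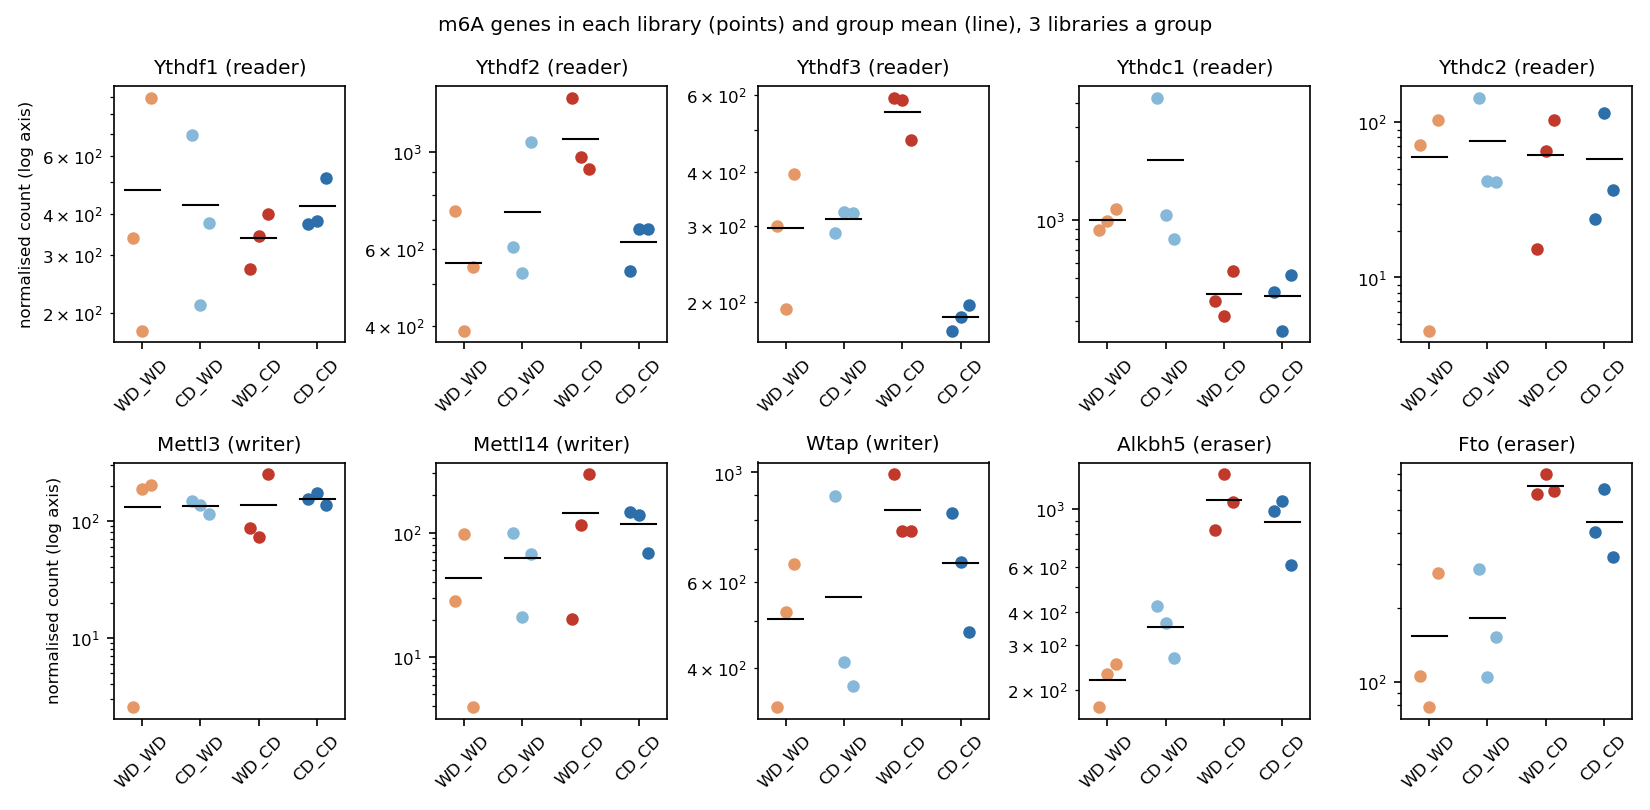
Normalised counts (log axis) of the 10 m6A genes in each of the 12 libraries, as points, with the group mean as a line, for WD_WD, CD_WD, WD_CD and CD_CD. Ythdf3 lies at 472 to 593 in WD_CD and at 172 to 197 in CD_CD, Alkbh5 and Fto lie lower in all 6 WD offspring libraries than in all 6 CD offspring libraries, and single low libraries stand out for Mettl3, Mettl14 and Ythdc2.

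In CD offspring, the comparison that chose the set, Ythdf3 had 593, 585 and 472 normalised counts in WD_CD and 172, 185 and 197 in CD_CD. The groups did not overlap, and the log2 difference was 1.56 ± 0.37 (SE, 3 libraries each). The endothelial mean log2 level was also apart, at 11.01 to 11.51 in WD_CD and 11.65 to 11.80 in CD_CD. Of the other marker lists, 0 of 10 smooth muscle genes (median log2 -1.06) and 13 of 14 macrophage genes (median 0.58) had a log2 fold change above 0. This held for 4901 of all 10655 genes, 7 of 11 lymphocyte, 6 of 7 MHC class II, 2 of 5 neutrophil and 5 of 8 fibroblast genes. Mean log2 levels overlapped between the groups: macrophage 8.16 to 11.30 in WD_CD and 8.70 to 9.84 in CD_CD, smooth muscle 9.39 to 11.26 and 10.92 to 11.91. The part of these markers in the difference of Ythdf3 was not tested. Its paralog Ythdf2 had 1332, 976 and 915 in WD_CD and 536, 668 and 669 in CD_CD, again without overlap (log2 0.77 ± 0.36 SE). The third cytoplasmic reader, Ythdf1, overlapped, with 273, 343 and 401 in WD_CD and 373, 380 and 515 in CD_CD (log2 -0.32 ± 0.57 SE). These 2 of 10 members had every WD_CD library above every CD_CD library, as did 4.00% of all genes, and 0 had every one below, as did 4.87% (8.87% in either direction). Since this contrast chose the genes, nothing is read from that count.

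The YTHDF genes resemble each other, and reads cannot be assigned where sequences match. Ythdf3 (ENSMUSG00000047213.14) lies on chromosome 3, 16183212 to 16217037, plus strand, Ythdf2 on chromosome 4, 132184912 to 132212303, minus strand, and Ythdf1 on chromosome 2, 180904377 to 180920949, minus strand (GRCm38). Their coding sequences of 1788, 1737 and 1758 bases were 70.9% identical between Ythdf3 and Ythdf2 and 70.4% between Ythdf3 and Ythdf1 over the aligned bases. The 60 coding bases most alike in all 3 genes, each within 1 coding exon, are shown to let the closest stretch be judged (GENCODE M21 transcripts, GRCm38; chr3:16204936-16204995 plus strand for Ythdf3, chr4:132204561-132204620 minus strand for Ythdf2 and chr2:180911116-180911175 minus strand for Ythdf1). Capitals mark the positions at which the 3 genes are not all alike.
Ythdf3: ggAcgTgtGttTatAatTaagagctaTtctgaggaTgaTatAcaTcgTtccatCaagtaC
Ythdf2: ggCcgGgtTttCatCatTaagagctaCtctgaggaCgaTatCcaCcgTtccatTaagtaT
Ythdf1: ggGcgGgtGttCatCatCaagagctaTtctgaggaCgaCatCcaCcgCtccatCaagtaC
Of these 60 positions 14 differed, so that Ythdf3 differed from Ythdf2 at 11 and from Ythdf1 at 10 of them. None of the 5457 stretches of 50 bases in Ythdf3 transcripts, and none of the 3313 in Ythdf1, occurred in a transcript of another gene. For Ythdf2, 7.49% occurred in the genes Gm6823 and Gm8401, so a small part of its reads is uncertain. The longest run shared by Ythdf3 with Ythdf2 was 17 bases and with Ythdf1 18 bases in the aligned coding sequences. The read length was not given in the sources used here.

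Ratios within a library do not depend on the scaling between libraries, beyond the added pseudocount. On the log2 scale Ythdf3/Ythdf1 averaged -0.41 ± 0.68 in WD_WD, -0.29 ± 0.93 in CD_WD, 0.71 ± 0.44 in WD_CD and -1.18 ± 0.18 in CD_CD (SD, n = 3 each). Ythdf3/Ythdf2 averaged -0.92 ± 0.42 in WD_WD, -1.16 ± 0.50 in CD_WD, -0.95 ± 0.21 in WD_CD and -1.75 ± 0.11 in CD_CD. CD_CD had the lowest mean of both ratios, and the WD_CD libraries did not overlap with it in either. Both ratios hold Ythdf3, which was chosen for its difference between WD_CD and CD_CD. Nothing is therefore read from that separation.

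**Figure D2:**
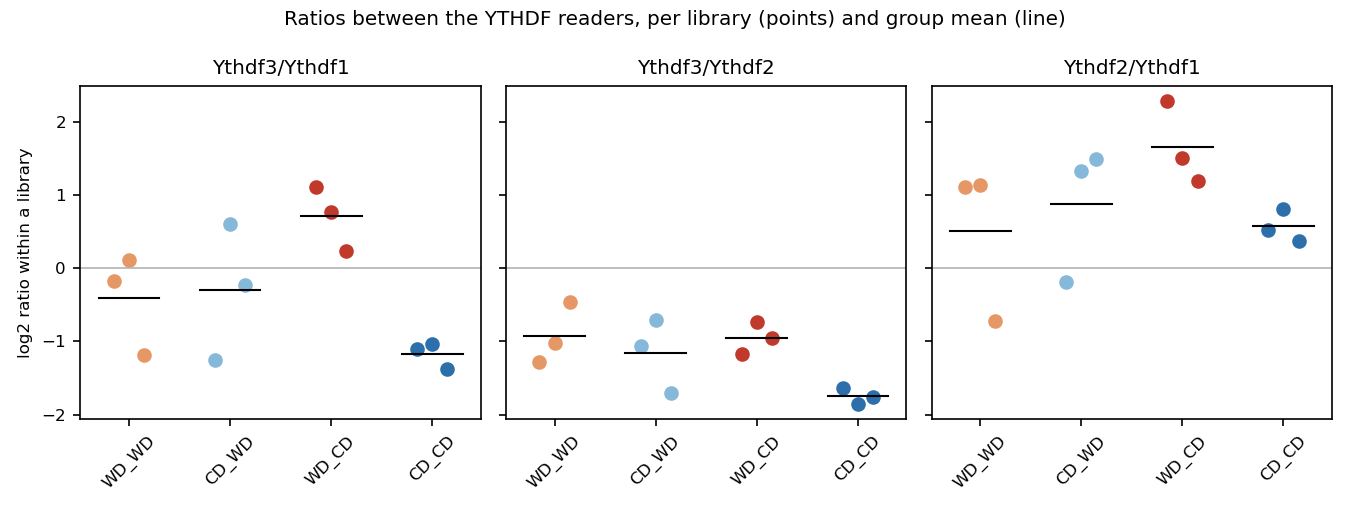
Log2 ratios between pairs of YTHDF readers within each library (points) with the group mean (line), for WD_WD, CD_WD, WD_CD and CD_CD. Ythdf3/Ythdf1 lies at 0.24 to 1.11 in WD_CD and at -1.38 to -1.04 in CD_CD, while the WD offspring libraries lie between -1.26 and 0.61 and overlap with both.

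Genes with the profile most like that of Ythdf3 were sought among 10255 other genes with a mean of at least 50 normalised counts, by the root mean square difference of centred log2 levels over the 12 libraries. The 5 nearest were Pip4k2a (0.43), a phosphatidylinositol phosphate kinase, Ilkap (0.43), a phosphatase associated with integrin-linked kinase, Dusp11 (0.44), an RNA phosphatase, Ythdf2 (0.44) and Coq6 (0.44), an enzyme of ubiquinone synthesis. Pip4k2a averaged 374 ± 88 in WD_WD, 406 ± 69.5 in CD_WD, 471 ± 104 in WD_CD and 175 ± 58.2 in CD_CD (SD, n = 3 each). Ythdf2 was at place 4 in this order, while Wtap was at place 459, Ythdf1 at 2021 and Fto at 4010. The ranking is a description of these libraries and, since Ythdf3 was chosen for its difference between WD_CD and CD_CD, genes with a like difference come first by construction.

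The other members showed smaller differences in CD offspring. Their log2 values were 0.54 ± 0.53 (SE) for Fto, 0.38 ± 0.41 for Wtap, 0.30 ± 0.36 for Alkbh5 and 0.06 ± 0.53 for Ythdc1. For the thinly covered genes they were -0.38 ± 1.23 for Mettl3, 0.02 ± 1.21 for Ythdc2 and -0.32 for Mettl14, the last with a 95% interval of -2.91 to 2.28. In these 7 genes the libraries of both groups overlapped. In the authors' deposited table the log2 fold change was 1.58 for Ythdf3 and 0.78 for Ythdf2. For Mettl14 it was 0.29, opposite in sign to the -0.32 given here, and DESeq2 on the recovered reads also gave 0.29.

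The difference between the mothers' diets in WD offspring uses no library that chose the genes, and it was tested. Its SE comes from a spread pooled over all 12 libraries, those of the choice included. For Ythdf3, whose spread entered its choice, the p-value and interval are therefore not independent of that choice. None of the 10 members passed, against 0% of all 10655 genes (limma, Benjamini-Hochberg adjusted p under 0.05; 628 genes, and 0 members, at an unadjusted p under 0.05; edgeR called 0 and DESeq2 14 genes, and neither called a member). Ythdf3 had 301, 193 and 396 normalised counts in WD_WD and 289, 322 and 322 in CD_WD, a log2 fold change of -0.13 ± 0.37 (SE, limma adjusted p = 0.982). The groups overlapped, and the 95% interval of the difference was -0.92 to 0.67. This value lay 1.69 below the 1.56 of CD offspring on the log2 scale, a difference that was not tested because the choice of the gene used one of its terms. For the paralog Ythdf2 the libraries also overlapped, with 735, 391 and 546 in WD_WD, against 606, 529 and 1055 in CD_WD. Its log2 fold change was -0.37 ± 0.36 (SE; adjusted p from limma 0.934).

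Alkbh5 was the member without overlap in WD offspring: it had 172, 231 and 253 in WD_WD and 421, 362 and 267 in CD_WD. The highest WD_WD library and the lowest CD_WD library lay close together, and the log2 fold change of -0.67 ± 0.36 (SE) did not pass (limma adjusted p = 0.863). This is 1 of 10 members with every WD_WD library below every CD_WD library, against 4.16% of all genes. None lay above without overlap, against 5.86% of all genes. In the authors' deposited table, 0.338% of genes had an adjusted p under 0.05 in this comparison, and the lowest among the members were 0.567 for Ythdc1 (log2 -1.02) and 0.572 for Alkbh5 (log2 -0.68). All 10 members had a log2 fold change below 0, with a median of -0.49, against a median of -0.03 over all genes tested, of which 5097 were above 0. Without CD_WD replicate 1, those of Ythdf1, Ythdc1, Wtap and Fto were above 0, at 0.42, 0.12, 0.32 and 0.07. Without WD_WD replicate 2 this held for Ythdf1, Ythdf3, Ythdc2 and Fto (0.54, 0.15, 0.44 and 0.05), without WD_WD replicate 1 for Ythdf1, Mettl3 and Wtap (0.07, 0.56 and 0.18), and without WD_WD replicate 3 for Mettl14 (0.01), so no common direction is read from it.

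**Figure D3:**
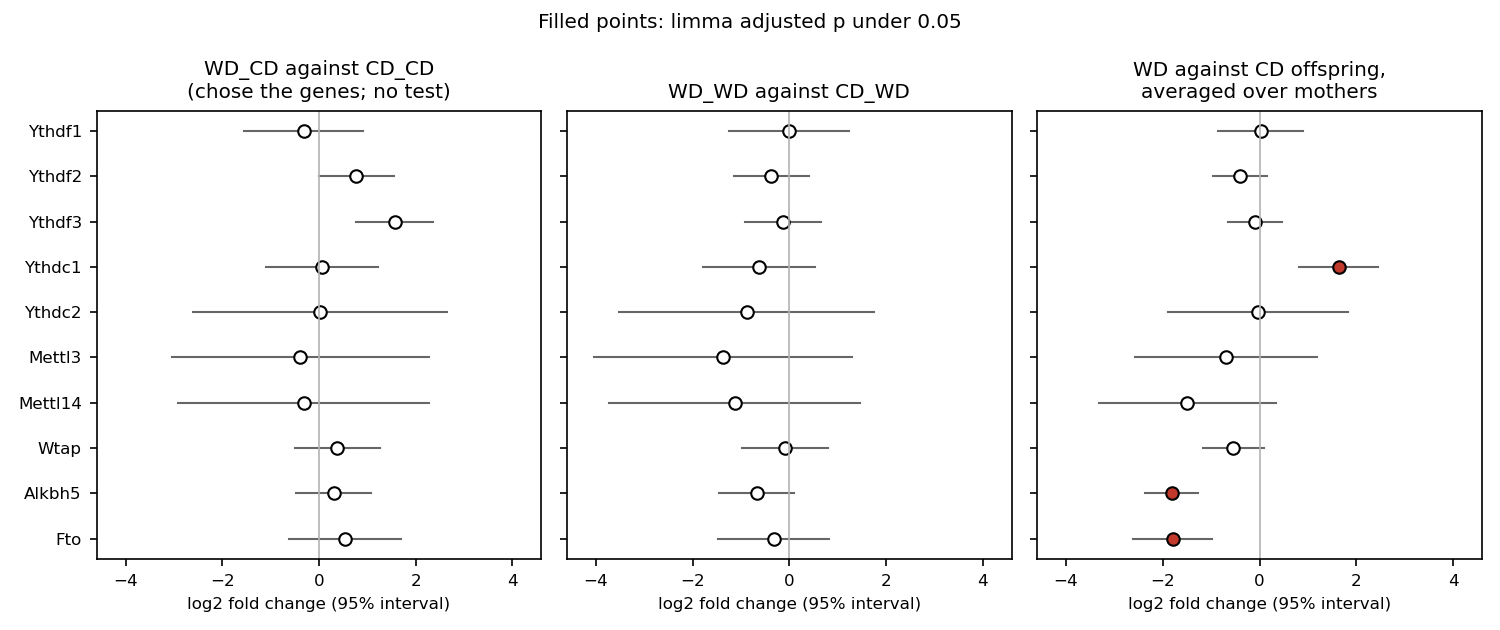
Log2 fold changes of the 10 members with 95% intervals from limma, for WD_CD against CD_CD (which chose the genes and was not tested), WD_WD against CD_WD, and WD against CD offspring averaged over mothers. Filled points passed the test: Ythdc1 at 1.63, Alkbh5 at -1.81 and Fto at -1.79 in the last panel, and none in the middle one.

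The offspring's own diet, averaged over both mothers' diets, is a contrast at right angles to the one that chose the genes and was tested for all 10. For Ythdf3 this frees the difference but not its SE, which holds the spread that entered the choice. Both erasers fell and the nuclear reader Ythdc1 rose in WD offspring, and the other 7 did not pass. That is 3 of 10, against 37.8% of all genes (20.1% higher and 17.6% lower), a share near that of all genes. The median log2 fold change of the members was -0.47, against -0.02 over all genes tested.

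Alkbh5 (chromosome 11, 60536381 to 60558512, plus strand) had 172, 231 and 253 normalised counts in WD_WD and 421, 362 and 267 in CD_WD, against 833, 1365 and 1063 in WD_CD and 983, 1077 and 608 in CD_CD. The 6 WD offspring libraries all lay below the 6 CD offspring libraries. In reads, Alkbh5 had 64 to 310 in WD offspring and 1498 to 3426 in CD offspring. The log2 fold change was -1.81 ± 0.25 (SE, limma adjusted p = 0.000206, lower in 6 of 6 libraries), with adjusted p-values up to 0.00111 over the alternatives. Fto (chromosome 8, 91313525 to 91668439, plus strand), an eraser also known from the association of its introns with body weight in humans, had 105, 78.9 and 277 in WD_WD and 286, 105 and 151 in CD_WD. It had 578, 697 and 596 in WD_CD and 404, 607 and 320 in CD_CD, and again the 6 and 6 libraries did not overlap. In reads, Fto had 41 to 176 in WD offspring and 788 to 1749 in CD offspring. Its log2 fold change was -1.79 ± 0.38 (SE, limma adjusted p = 0.00286), with adjusted p-values up to 0.0107 over the alternatives. These 2 members lay lower without overlap of the 6 and 6 libraries, as did 9.69% of all genes (22.3% in either direction). The ratio Fto/Alkbh5 overlapped between all groups, with log2 means of -0.70 ± 0.83 in WD_WD, -1.05 ± 0.65 in CD_WD, -0.78 ± 0.23 in WD_CD and -1.01 ± 0.24 in CD_CD (SD, n = 3 each). Several unnamed antisense and other genes overlap Fto, and 2.38% of its stretches of 50 bases occur in transcripts of other genes. The handling of strand was not given in the sources used here.

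Ythdc1 (chromosome 5, 86804221 to 86836659, plus strand) had 884, 987 and 1132 normalised counts in WD_WD and 4259, 1061 and 795 in CD_WD. In CD offspring it had 382, 321 and 544 in WD_CD and 424, 269 and 517 in CD_CD. The groups of 6 did not overlap, as for 12.6% of all genes in this direction, and the log2 fold change was 1.63 ± 0.38 (SE, limma adjusted p = 0.00505). The value of 4259 belonged to CD_WD replicate 1, the library with the lowest endothelial and highest lymphocyte level. Without it the log2 fold change of Ythdc1 was 1.27 (limma adjusted p = 0.00161). The gene Gm43055, which has no value of its own here, overlaps Ythdc1 on the same strand and shares 4.23% of its stretches of 50 bases.

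Cell type markers also differed between the offspring diets. In WD offspring 14 of the 15 endothelial markers fell and 0 rose (median log2 -2.80), 9 of 10 smooth muscle and 3 of 8 measured fibroblast markers fell, and 8 of 14 macrophage, 7 of 11 lymphocyte, 6 of 7 MHC class II and 4 of 5 neutrophil markers rose. None of these markers was without reads in all libraries of a diet. The summed lymphocyte level was 6486 to 349050 in WD offspring and 327 to 4809 in CD offspring, and that of smooth muscle 1232 to 23935 in WD offspring and 12872 to 87320 in CD offspring. Summed MHC class II markers reached 353017 to 3710230 in WD offspring and 10036 to 81334 in CD offspring, neutrophil markers 13724 to 193023 in WD offspring and 151 to 1147 in CD offspring, and fibroblast markers 2515 to 77738 in WD offspring and 27865 to 71983 in CD offspring. The part of the cell mixture in the differences of Alkbh5, Fto and Ythdc1 was not tested. In CD_WD replicate 1, whose endothelial mean was lowest and lymphocyte mean highest, Alkbh5 and Fto were the highest of the 6 WD offspring libraries. Fto had 286 there and 277 in WD_WD replicate 3, and nothing is read from 1 library.

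**Figure D4:**
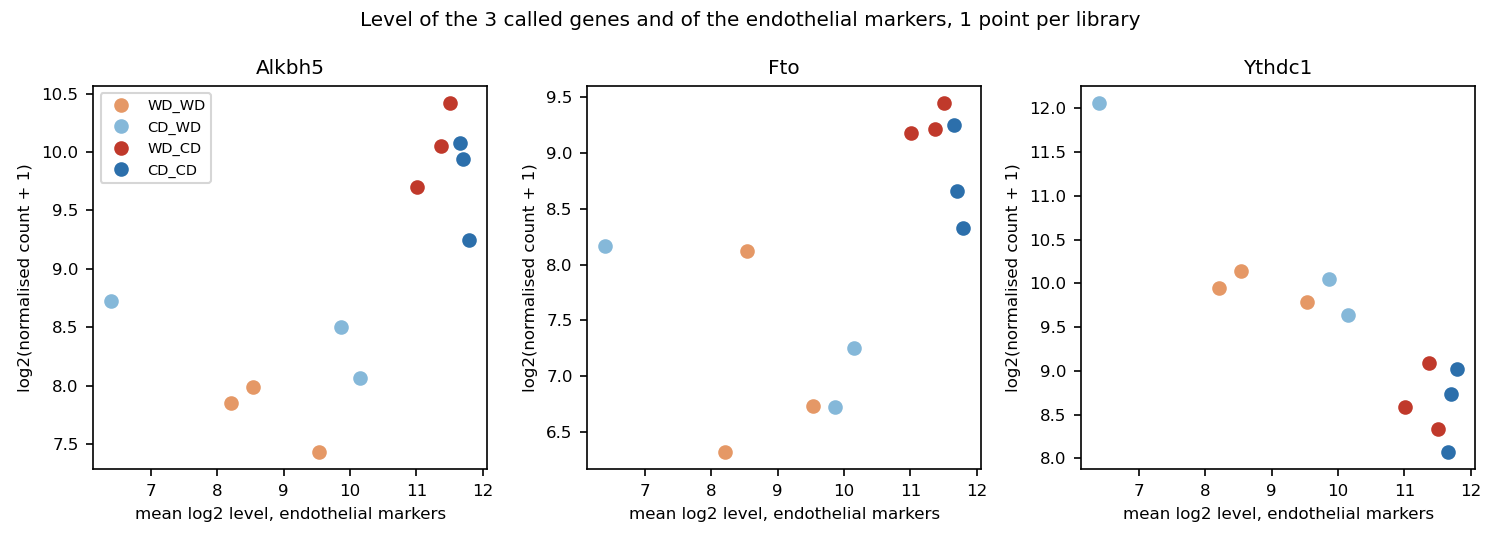
Log2 level of Alkbh5, Fto and Ythdc1 against the mean log2 level of 15 endothelial markers, 1 point per library, coloured by group. The 6 CD offspring libraries lie together at endothelial means above 11, and CD_WD replicate 1 lies at 6.40 with the highest Ythdc1 level, 12.06.

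The absolute level of these changes depended on the scaling. With library totals in place of the deposited size factors, the median log2 fold change of all genes was -1.40, and relative to it Alkbh5 was at -1.82, Fto at -1.80 and Ythdc1 at 1.62. Unadjusted for that shift, Ythdc1 had a log2 fold change of 0.22 (limma adjusted p = 0.553), and Ythdf1, Ythdf2, Ythdf3, Mettl14 and Wtap were called lower. Of the genes called, 9.59% were then higher, against 53.3% with the deposited scaling.

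The 7 members that did not pass had log2 fold changes of -1.49 ± 0.85 (SE, Mettl14), -0.70 ± 0.87 (Mettl3), -0.54 ± 0.29 (Wtap), -0.40 ± 0.25 (Ythdf2), -0.10 ± 0.26 (Ythdf3), -0.03 ± 0.86 (Ythdc2) and 0.02 ± 0.40 (Ythdf1), with limma adjusted p-values of 0.157 to 0.984. For Ythdf3 the 95% interval was -0.66 to 0.47, from an SE that is not independent of its choice. The interval of Ythdc2, -1.88 to 1.83, holds changes of the size measured for the erasers in either direction, and that of Mettl3, -2.58 to 1.18, holds such a change downward, as does that of Mettl14, -3.33 to 0.34.

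The library values of the writers show where this width lies. Wtap, the anchoring subunit, had 334, 522 and 653 normalised counts in WD_WD and 897, 412 and 368 in CD_WD, against 992, 759 and 761 in WD_CD and 827, 659 and 475 in CD_CD. Its ranges overlapped between the offspring diets. Mettl3, the catalytic subunit, had 2.57, 188 and 202 in WD_WD and 147, 136 and 115 in CD_WD, against 87.4, 72.5 and 250.1 in WD_CD and 152, 172 and 136 in CD_CD. Apart from WD_WD replicate 1, its libraries lay between 72.5 and 250.1, and without that library its log2 fold change was 0.26. Mettl14, the RNA-holding partner, had 28.3, 97.1 and 3.96 in WD_WD and 98.9, 20.9 and 67.1 in CD_WD, against 20.4, 116 and 296 in WD_CD and 148, 138 and 68.2 in CD_CD. All 6 WD offspring libraries were below 100, as were 2 of the 6 CD offspring libraries. Ythdc2, the helicase reader, had 71.9, 4.55 and 103 in WD_WD and 145, 41.8 and 41.3 in CD_WD, against 15.3, 64.9 and 104 in WD_CD and 23.9, 114 and 36.9 in CD_CD, with low and high libraries in every group. Of the 50-base stretches of Mettl3, 15.2% also occur in transcripts of Tox4, an overlapping gene on the opposite strand, so its values are uncertain where strand was not used.

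With CD mothers alone, Ythdc1 rose (CD_WD against CD_CD, log2 1.97 ± 0.53 SE, limma adjusted p = 0.0268) and Alkbh5 fell (-1.33 ± 0.36, limma adjusted p = 0.0271). These are 2 of the 9 members other than Ythdf3, against 15.0% of all genes (9.46% higher and 5.55% lower). Scaled to library totals, 6.66% of the calls were higher, against 63.0% with the deposited scaling, and Ythdc1 did not pass (log2 0.53, limma adjusted p = 0.337). Ythdf3 lay above without overlap, but its CD_CD values entered its choice, so it is not set against the share of all genes. Of the other members, Ythdc1 lay above, as did 21.9% of all genes, and Alkbh5 and Fto below, as did 21.6% (43.5% in either direction). Neither passed without CD_CD replicate 1 (adjusted p = 0.0755 for Ythdc1 and 0.104 for Alkbh5) or without CD_CD replicate 2 (0.111 and 0.119), where limma called 698 and 705 genes in place of 1599. Alkbh5 also failed without CD_WD replicate 2 (0.0563) and CD_WD replicate 3 (0.0726). Fitted on these groups alone, neither passed (0.0834 and 0.0561). Fto had -1.36 ± 0.53 (limma adjusted p = 0.104).

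With WD mothers, Alkbh5 (WD_WD against WD_CD, log2 -2.30 ± 0.36 SE, limma adjusted p = 0.00133) and Fto (-2.22 ± 0.53, limma adjusted p = 0.011) fell, again 2 of 9 members, against 24.4% of all genes (14.2% higher and 10.2% lower). Scaled to library totals, 9.34% of the calls were higher, against 58.2%. Ythdf3 lay below without overlap, but its WD_CD values entered its choice, so it is not set against the share of all genes. Of the other members, Ythdf2, Wtap, Alkbh5 and Fto lay below and Ythdc1 above, against 19.4% and 21.9% of all genes (41.4% in either direction). Alkbh5 and Fto both passed without any 1 of these libraries. The cytoplasmic reader Ythdf2 had a log2 fold change of -0.97 ± 0.36 and did not pass (limma adjusted p = 0.0648). It passed without WD_WD replicate 1 (0.0475) and with TMM scaling (0.0439). Wtap had -0.78 ± 0.41 (limma adjusted p = 0.181), and Ythdc1 had 1.29 ± 0.53 (limma adjusted p = 0.0931), which passed when only these groups were fitted (0.0272). Whether the effects of the offspring's diet differed between the mothers' diets was not tested.

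Other proteins of the pathway followed no single direction with the offspring's diet. Of all genes, 20.1% rose and 17.6% fell in this comparison, and the counts of each list are read against these shares. Of 9 measured further methyltransferase subunits 1 rose and 1 fell (median log2 -0.10). Trmt112, the stabilising partner of several methyltransferases including the ribosomal RNA m6A enzyme METTL5, averaged 1925 ± 577 normalised counts in WD_WD and 2416 ± 1618 in CD_WD, against 556 ± 90.7 in WD_CD and 675 ± 109 in CD_CD (SD, n = 3 each; log2 1.70 ± 0.30 SE, limma adjusted p = 0.000914). 1110037F02Rik, an older symbol of Virma, the scaffold of the writer complex, had 156 ± 107 in WD_WD, 76.6 ± 30.7 in CD_WD, 209 ± 72.8 in WD_CD and 312 ± 51.5 in CD_CD (log2 -1.35, limma adjusted p = 0.0245).

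Among 9 measured proteins reported to bind m6A other than the YTH family, 2 rose and 1 fell (median log2 -0.03). Hnrnpa2b1, a nuclear RNA-binding protein proposed as an m6A reader, averaged 6874 ± 1647 in WD_WD and 8562 ± 4932.5 in CD_WD, against 1650.1 ± 139 in WD_CD and 1713 ± 142 in CD_CD (SD, n = 3 each; log2 2.11 ± 0.26 SE, limma adjusted p = 9.27e-05). Hnrnpc rose (log2 0.76 ± 0.23 SE, limma adjusted p = 0.0198), and Igf2bp2, whose family is reported to stabilise marked RNA, fell (-2.18 ± 0.68, limma adjusted p = 0.0229).

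Of 11 CCR4-NOT genes, the decay machinery that YTHDF2 recruits, 1 rose (Cnot3, log2 1.39, limma adjusted p = 0.0404) and 0 fell. Of 7 other AlkB dioxygenases 2 rose and 0 fell: Alkbh7, a mitochondrial member (1.18, limma adjusted p = 0.0103), and Alkbh3, a repair enzyme of alkylated nucleic acids (0.78, limma adjusted p = 0.0436). In the supply of S-adenosylmethionine, the methyl donor, 1 of 11 rose (Shmt1, a folate enzyme, log2 3.39 ± 1.05 SE, limma adjusted p = 0.0228; 0.117 with edgeR). None of the 11 other RNA methyltransferases passed with limma (median log2 0.59; 2 at an unadjusted p under 0.05), and those with the smallest p were Nsun6 (2.47, limma adjusted p = 0.0569; 0.0312 with DESeq2) and Trmt6 (1.15, limma adjusted p = 0.0584). With limma Nsun6 passed at a pseudocount of 5 (0.0311) and without WD_CD replicate 1, 2 or 3 (0.0352, 0.0196 and 0.0207), and Trmt6 without WD_CD replicate 1 (0.0125) or CD_WD replicate 3 (0.0336). Of the 9 called genes named from these lists, Trmt112, Hnrnpa2b1 and Alkbh7 passed without any 1 library. Each of the other 6 lost its call without at least 1 library: 1110037F02Rik, Hnrnpc, Igf2bp2, Cnot3, Alkbh3 and Shmt1. Their highest adjusted p-values without 1 library were 0.0608 for 1110037F02Rik, 0.0503 for Hnrnpc, 0.0593 for Igf2bp2, 0.0874 for Cnot3, 0.105 for Alkbh3 and 0.0539 for Shmt1. Cnot3 and Alkbh3 also did not pass with TMM scaling (0.0509 and 0.0733) or the replicate block (0.0512 and 0.0569), nor did Alkbh3 with edgeR (0.0789). Scaled to library totals, Hnrnpc, Cnot3, Alkbh7 and Alkbh3 had log2 fold changes below 0 (-0.65, -0.01, -0.23 and -0.63), which relative to the shifted median were 0.75, 1.39, 1.17 and 0.77. Hnrnpc then passed as lower (limma adjusted p = 0.0243), and Trmt112, Alkbh7, Shmt1, Cnot3 and Alkbh3 did not pass (0.274, 0.4998, 0.0954, 0.978 and 0.116). In WD offspring, 0 genes of these 6 lists passed for the mother's diet with limma, and 0 had an unadjusted p under 0.05.

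**Figure D5:**
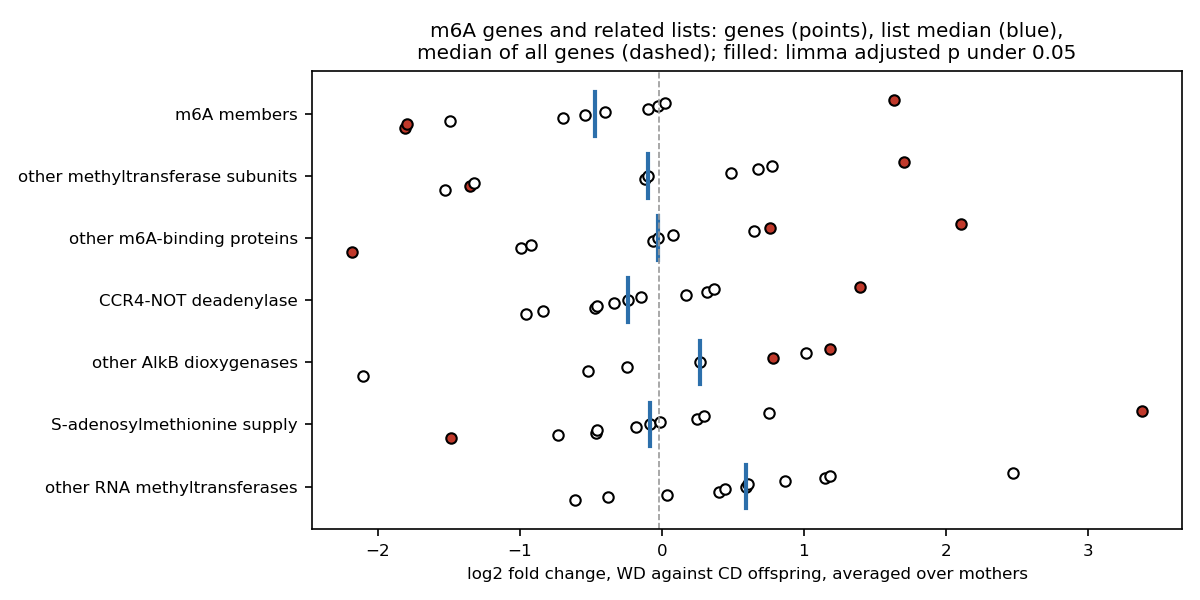
Log2 fold changes of WD against CD offspring, averaged over mothers, for the m6A genes and 6 related lists, with each gene as a point, the list median as a blue line and the median of all genes dashed. Called genes (filled) lie on both sides of 0, from Igf2bp2 at -2.18 to Shmt1 at 3.39.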

How the data were processed

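Per the submitters' processing notes, the genome was GRCm38 (mm10) and the tools were DESeq2, featureCounts 2.0.1, SAMtools 1.13, HISAT2 2.2.1, Trim Galore 0.6.10 and FastQC 0.12.1. Their settings, order, strand handling and gene filter were not stated. What the authors deposited is a normalised signal per gene and library, which is a read count divided by 1 size factor per library: 100% of the 127860 values were whole multiples of 1 read within 0.01. For both comparisons of mothers the deposited values include, per gene, the authors' p-value, its adjusted form and the log2 fold change.

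Here log2(value + 1) was fitted with limma 3.58.1 (R 4.3.3, mean-variance trend) over all 10655 genes, with a mean per group and 8 residual degrees of freedom. Fold changes are therefore on the log2(value + 1) scale, which can understate the change of low genes. It can also enlarge the change where 1 library lies near 0. For Mettl3, with 1 read in WD_WD replicate 1, the mother's diet in WD offspring gave a log2 fold change of -1.37 with limma and -0.02 with DESeq2. The filter, a mean of at least 1, removed 0 genes. Benjamini-Hochberg adjusted p-values under 0.05 over all genes were called. For Ythdf3, the mother's diet in CD offspring and the offspring's diet within CD mothers or within WD mothers were not tested. The offspring's diet averaged over mothers was, since that contrast, though it uses the same libraries, is orthogonal to the choice. In every tested contrast the SE of Ythdf3 still holds the spread of the libraries that chose it. edgeR 4.0.16 and DESeq2 1.42.0 on the recovered reads, other pseudocounts, filters and scalings, a replicate block and the leaving out of single libraries were alternatives.

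All members are named. Of each related list, up to 3 called genes with the smallest p are named, or 2 where none passed. One result of the S-adenosylmethionine supply list is not reported here. The members and lists were chosen with earlier results of these data known. Tested on simulated data for the average effect of the offspring's diet (10655 genes), limma called 1.59%, 50% and 76.2% of genes changed by 1, 2 and 3 log2 units. For the mother's diet in WD offspring it called 1.59%, 12.2% and 44.4%. In each simulation 63, 74 and 63 genes were changed by these amounts. In the data 4023 genes were called for the average effect, so the simulated shares need not hold for it.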

Additional observations from a re-analysis of the deposited data

Results flagged for a closer look

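Ythdf3 lay on opposite sides for the offspring's diet under the 2 mothers' diets. With WD mothers every WD_WD library (301, 193 and 396 normalised counts) lay below every WD_CD library (593, 585 and 472), a log2 fold change of -0.94. With CD mothers every CD_WD library (289, 322 and 322) lay above every CD_CD library (172, 185 and 197), a log2 fold change of 0.75. Of all 10655 genes, 12 (0.113%) had groups apart in opposite directions in this way. The difference was not tested, because Ythdf3 was chosen for its values in WD_CD and CD_CD, which enter it. For the same reason nothing is read from the share of 0.113%. With scaling to library totals both fold changes of Ythdf3 were below 0 (-2.32 with WD mothers and -0.69 with CD mothers). Relative to the median of all genes, which this scaling placed at -1.36 and -1.45, they were -0.97 and 0.76.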

How the results depend on the processing

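The count of called members was 0 for the mother's diet in WD offspring under every alternative run. It was 3 for the average effect of the offspring's diet, against 7 with scaling to library totals and 3 to 4 without single libraries (Wtap was added without CD_WD replicate 1). Of the 9 members other than Ythdf3, 5 were called in place of 2 with that scaling, with CD mothers (where Ythdc1 was no longer among them) and with WD mothers. With CD mothers 0 were called when only the groups compared were fitted, and 0 to 2 without single libraries. With WD mothers it was 2 to 3. Genes called numbered 6697 in place of 4023, 4367 in place of 1599 (CD mothers) and 4711 in place of 2604 (WD mothers) with scaling to library totals, where 9.59% of the calls of the average effect were higher, against 53.3%. Without single libraries they ranged from 3300 to 3971 (average), 698 to 1714 (CD mothers) and 1593 to 2310 (WD mothers). For the mother's diet in WD offspring they were 0, with 1 at a pseudocount of 5, 1 with the replicate block, 14 with DESeq2 and 0 to 10 without single libraries.

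The replicate block gave 3812, 1433 and 2319 calls for the average effect, CD mothers and WD mothers, and 3, 2 and 2 members. The labels do not say whether equal replicate numbers pair samples. Deviations from the group mean had r from -0.23 to 0.07 in the 18 same-numbered pairs. Of the 12 libraries 0 correlated best with their own number, which cannot exclude a pairing. The average effect uses all groups, so fitting only the groups compared gives no other value for it. Of the members tested, Alkbh5, Fto and Ythdc1 kept their sign for the average effect in all alternatives. Signs turned as follows. With scaling to library totals the log2 fold change was -1.39 (Ythdf1, average), -1.21 (Ythdf1, WD mothers), -0.089 (Ythdc1, WD mothers), -1.28 (Ythdf2, CD mothers), -0.995 (Ythdc2, CD mothers), 0.023 (Ythdf1, mother's diet in WD offspring), -0.65 (Hnrnpc), -0.015 (Cnot3), -0.23 (Alkbh7), -0.63 (Alkbh3) and -0.26 (Trmt6). With TMM scaling it was -0.087 (Ythdf1, average). Ythdc2 (average) had 0.033 at a pseudocount of 5, 0.036 with edgeR and 0.16 with DESeq2. Ythdf1 had 0.13 with edgeR and 0.14 with DESeq2 for the mother's diet in WD offspring, and 0.012 with DESeq2 with CD mothers. The cause was not tested beyond the shift of the median given for the scaling.

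Without single libraries, members turned sign within these ranges for the mother's diet in WD offspring: Ythdf1 -0.63 to 0.54, Ythdf3 -0.37 to 0.15, Ythdc1 -1.09 to 0.12, Ythdc2 -1.67 to 0.44, Mettl3 -2.36 to 0.56, Mettl14 -2.14 to 0.014, Wtap -0.33 to 0.32 and Fto -0.86 to 0.069. For the average effect these were Ythdf1 -0.29 to 0.29, Ythdf3 -0.22 to 0.044, Ythdc2 -0.42 to 0.64 and Mettl3 -1.19 to 0.26. With CD mothers they were Ythdf1 -0.56 to 0.29, Ythdf2 -0.13 to 0.36 and Ythdc2 -0.17 to 1.06, and with WD mothers Ythdf1 -0.45 to 0.72, Ythdc2 -1.27 to 0.85 and Mettl3 -2.18 to 0.73. Mettl3, Mettl14 and Ythdc2 had 1, 1 and 3 reads in their lowest libraries. For Mettl3 and Ythdc2 these were not the shallowest, and the cause was not tested.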
